A study of Arabidopsis thaliana with 4 samples.

Results

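Genes of calcium sensing and of the mitogen-activated protein (MAP) kinase cascade were compared between inflorescences of the Arabidopsis thaliana mutant pistillata and of wild type. The genes were taken by name. They carry a symbol of the CPK, CRK, CIPK, CBL, CML, MPK, MKK, MAPKKK, PERK, LRX, WAK, WAKL, PRK, RLK, RLP, LECRK or RIC series followed by a number, and needed a probe that lists no other gene and a value on all 4 arrays. The reference gene table holds 253 genes with such a symbol. In the probe annotation used here 8 of them appear on any probe, 3 have a probe of their own, and these 3 are measured on all 4 arrays, of 5386 genes measured in that way. They are ATMPK13 (AT1G07880), CML30 (AT2G15680) and CML41 (AT3G50770). No calcium-dependent kinase, calcineurin B-like protein, upstream MAP kinase kinase or receptor kinase with such a symbol is among them. The set covers 2 calcium sensors and 1 MAP kinase, and the other 250 genes are not analysed here on probes of their own. Many measured genes carry only a locus name as symbol, and genes of these families among those were not looked for.

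PISTILLATA is a transcription factor that specifies petals and stamens, and flowers without it lack both organs. Total RNA from pistillata inflorescences, in one channel, was hybridised against total RNA from wild-type inflorescences, in the other, on each of 4 arrays of spotted oligonucleotides. The labels name no allele, accession or plant age. They do not say whether the 4 arrays hold separately grown plants, so a p-value reflects only how far these arrays scatter, and that scatter may be technical. An inflorescence mixes many tissues, so that fewer cells of a type and less RNA per cell cannot be told apart.

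Calmodulin-like proteins (CMLs) bind calcium ions with EF-hand motifs, change shape and dock onto target proteins, and so pass on a rise in cytosolic calcium. MAP kinases are the last step of a relay in which a MAP kinase kinase kinase activates a MAP kinase kinase, which then phosphorylates the MAP kinase. Both systems work downstream of receptor kinases at the plasma membrane, in defence, in growth and in the tip growth of pollen tubes.

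The sign of each array had to be set before any gene could be read. By the labels, channel 1 held pistillata RNA on arrays 1 and 3, and channel 2 held it on arrays 2 and 4. The deposited ratios went against that order across gene probes that never reach the table's limits. Arrays 1 and 3, which share a labelled order, had a Pearson's r of -0.68 there. Arrays 1 and 4, which do not, had one of 0.71. Array 4 had an r of -0.68 with array 2 and -0.69 with array 3. With probes at the limits included, the r was -0.29 for arrays 1 and 3 and 0.49 for arrays 1 and 4. Array 4 then had an r of only -0.054 with array 2 and 0.0057 with array 3. Going by the probes off the limits, arrays 1 and 4 were multiplied by -1. The turning puts the 3 measured genes of 27 markers of the tapetum, the nourishing layer of the anther (SWEET8, SHT and ATA20), on the lower side. Their mean log2 ratios were -3.71, -3.66 and -2.96. Those genes served to choose the sign, and their direction is built in. TUA1, the pollen alpha-tubulin that is the 1 measured gene of 59 pollen markers and was also used for the sign, stood at -0.47, and INO, the 1 measured gene of 18 carpel and ovule markers, at -0.20 (limma adjusted p = 0.102 and 0.288). Of 7 petal markers 0 had a probe of their own under the listed symbol. Every ratio that follows is pistillata over wild type on a log2 scale, in this likely direction. With the common sign exchanged every value changes sign, and each gene higher in pistillata would be lower by the same amount.

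None of the 3 genes passed limma's test at an adjusted p of 0.05, with 0 lower and 0 higher. Among all 5386 genes, 5.79% passed as lower and 2.75% higher. At an unadjusted p under 0.05 there was 1 of the 3 by limma, ATMPK13, and 1661 of all genes (30.8%). The 3 means were 0.60, 0.31 and 0.10, all above 0. A positive mean was common, with 3707 of the 5386 genes (68.8%) above 0 and a median over all genes of 0.16. CML30 lay below that median and the other two above it.

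ATMPK13 encodes a MAP kinase of the group that includes MPK4, and it is a substrate of the MAP kinase kinase MKK6. Its log2 ratios on arrays 1 to 4 were 0.88, 0.34, 0.49 and 0.69. Each array was above 0, with array 1 highest and array 2 lowest. The mean of 0.60 ± 0.24 (SD, n = 4) corresponds to 1.52-fold more transcript in pistillata, with a 95% interval of 0.27 to 0.93 on the log2 scale by limma. The interval did not include 0, but after adjustment over all genes the p was 0.0588 and the gene was not called (limma).

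ATMPK13 was also above the middle of the genes on each array. It exceeded the array's median gene by 0.73, 0.18, 0.35 and 0.59 log2 units on arrays 1 to 4. Its rank among the 5386 genes was the 91.7th percentile on array 1, the 70.4th on array 2, the 82.4th on array 3 and the 91.5th on array 4. Its SD ranked at the 36.4th percentile, so its arrays lay closer together than those of most genes. In another fit each array was centred on its probe median, taken over a wider set of gene probes than those of the 5386 genes. The mean of ATMPK13 was then 0.49, with an interval of 0.15 to 0.83 and an adjusted p of 0.109 by limma. The median over all genes was 0.049 in that fit.

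The call on ATMPK13 depended on which other genes were tested. With probes holding a value at the limits of the table left out, its log2 ratio stayed at 0.60 and its adjusted p was 0.0326 by limma over 5154 genes. Calls were commoner in that fit, with 415 of the 5154 genes lower and 311 higher, against 312 and 148 of 5386 before. None of the 3 genes has a value at those limits. Turned by the channel order in the labels, with channel 1 taken as the numerator, the mean of ATMPK13 was -0.01, with an interval of -0.84 to 0.82. In that order 2 of its arrays counted against the other 2. The numerator was not given, and with channel 2 as the numerator each mean in that order changes sign. No gene was called in that order (0 of 5386 in limma, where 18 had an unadjusted p under 0.05).

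**Figure D1:**
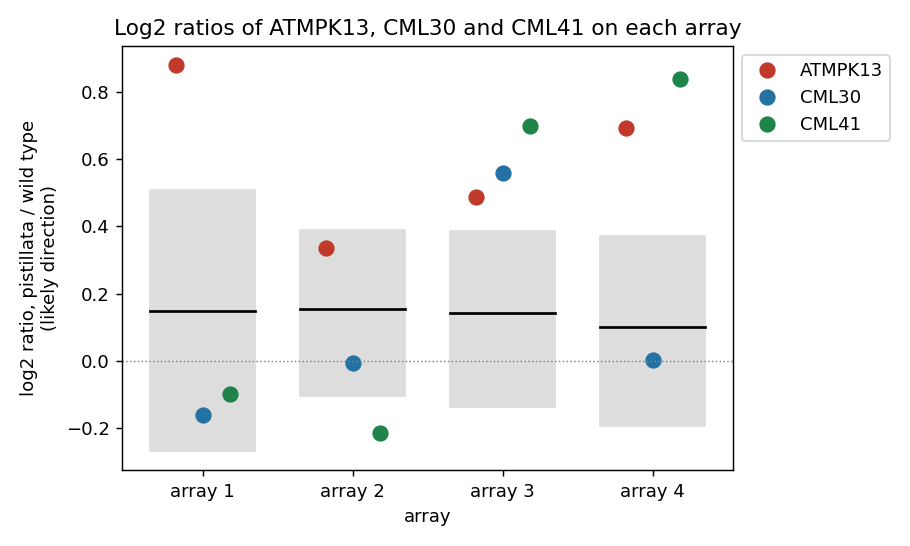
Log2 pistillata to wild-type ratio (vertical axis, likely direction) on each of the 4 arrays for ATMPK13, CML30 and CML41 (points). Grey boxes span the lower to the upper quartile of all 5386 genes and black lines their median. ATMPK13 lies above the median on each array, whereas CML41 lies below it on arrays 1 and 2 and above it on arrays 3 and 4.

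CML41 encodes a calmodulin-like protein that acts in the closing of plasmodesmata, the channels between plant cells, during the response to bacterial flagellin. Its log2 ratios were -0.10, -0.22, 0.70 and 0.84 on arrays 1 to 4. The arrays fell on both sides of 0, with arrays 1 and 2 below and arrays 3 and 4 clearly above. The mean was 0.31 ± 0.54 (SD, n = 4), with a 95% interval of -0.29 to 0.90 and an adjusted p of 0.397 by limma. The interval spans 0 and reaches above the mean of ATMPK13.

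The spread of CML41 between arrays was wide for this table, at the 81.5th percentile of the SDs of all genes. It ranked at the 33.5th and 18.7th percentiles of the genes on arrays 1 and 2, and at the 90.5th and 94.8th on arrays 3 and 4. Its highest leave-one-out mean was 0.48, without array 2, and its lowest was 0.13, without array 4. That is a move of over 1.5 times in either direction, and no fit with an array left out called the gene (limma adjusted p from 0.339 to 0.724).

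CML30 encodes a calmodulin-like protein found in mitochondria. It had log2 ratios of -0.16, -0.01, 0.56 and 0.00088 on arrays 1 to 4. Only array 3 stood away from 0, and the others lay at or just under it. The mean was 0.10 ± 0.32 (SD, n = 4), a 1.07-fold difference, with a 95% interval of -0.30 to 0.49 and an adjusted p of 0.674 by limma. Without array 3 the mean was -0.06 (limma adjusted p = 0.801), so the sign of the mean rests on that array. The upper end of the interval, 0.49, is a bound of this fit on how much higher CML30 could be, and the p does not show that the genotypes are alike.

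The 3 genes differed in how they varied over the arrays. Array 3 gave the highest ratio of CML30, array 4 that of CML41 and array 1 that of ATMPK13. On arrays 1 and 2 ATMPK13 was the only one of them above 0. On array 3 all 3 were above the upper quartile of the genes, which was 0.39, at 0.49, 0.56 and 0.70.

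**Figure D2:**
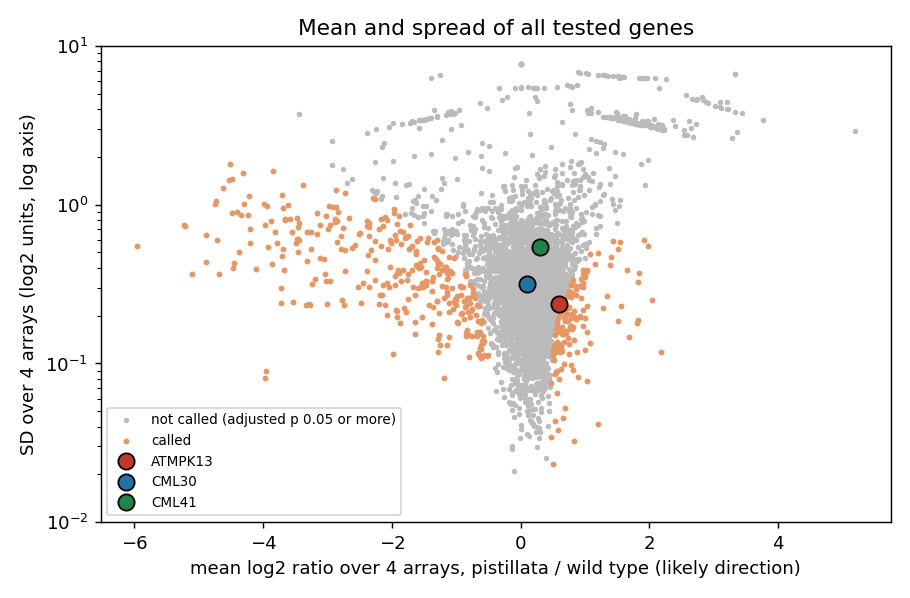
Mean log2 ratio over 4 arrays (horizontal axis) against the SD over the same arrays (vertical, log axis) for all 5386 genes, with called genes in orange and the 3 signalling genes as large points. ATMPK13, at a mean of 0.60 and an SD of 0.24, sits at the edge of the called genes, and CML30 and CML41 lie within the uncalled ones.

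**Figure D3:**
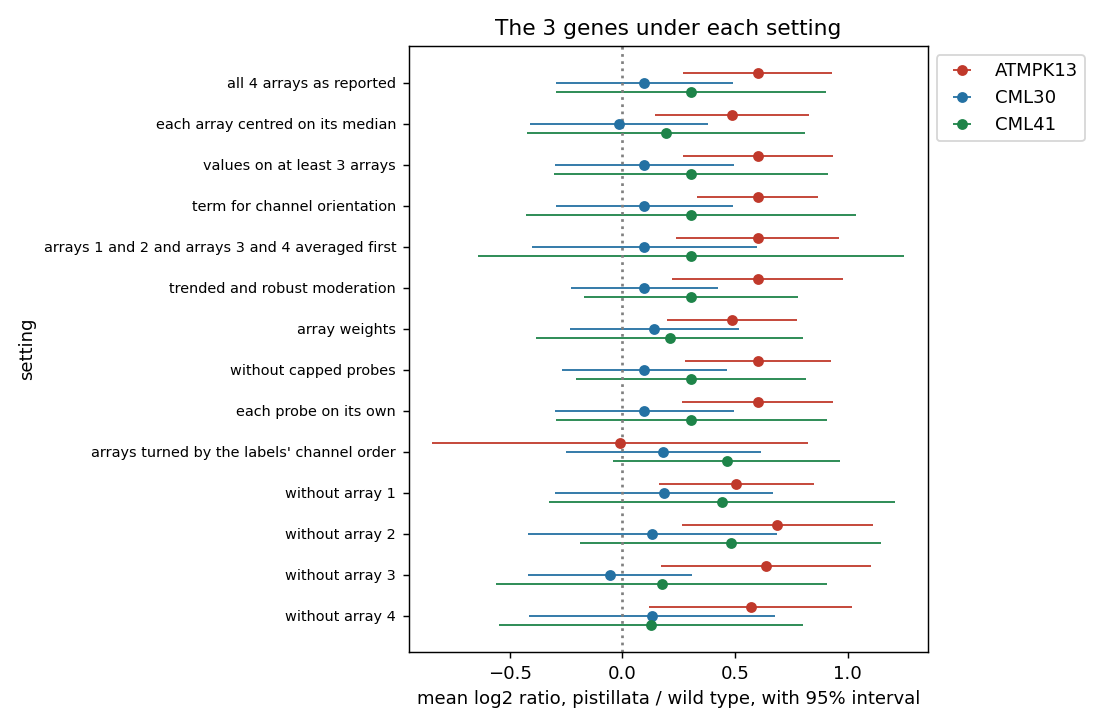
Mean log2 ratio and 95% interval by limma (horizontal axis) of the 3 genes under each setting (vertical axis). ATMPK13 stays between 0.49 and 0.69 except in the labels' channel order, where it is at -0.01 with channel 1 taken as the numerator. The intervals of CML30 and CML41 include 0 in each setting.

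More genes with a CML symbol could be seen only on probes that list several genes. Such a probe does not say which of its genes gave the signal. There were 6 probes of this kind, 5 with CML genes and 1 with RIC7, a target of ROP GTPases. Over single probes, 7.23% of 26156 were called lower and 2.98% higher by limma. Of the 6, 1 was called lower and 0 higher, and 3 had an unadjusted p under 0.05, as did 30.6% of all probes.

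The called probe lists CML42, CML43 and AT1G21550. CML42 is a calcium sensor that takes part in trichome branching and in the response to herbivores. The probe read -2.23, -2.08, -1.45 and -2.95 on arrays 1 to 4, all far below 0 on the log2 scale. Its mean was -2.18 ± 0.62 (SD, n = 4; limma adjusted p = 0.011). The adjusted p was 0.0685 without array 1 and 0.0526 without array 2 (limma), so it was not called when either was left out. Over all genes 312 were called lower with 4 arrays, 192 without array 1 and 159 without array 2. The calls over single probes in those fits were not counted.

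A second probe lists CML42 and CML43 alone. It read 0.80, 0.29, 0.36 and 0.96 on arrays 1 to 4. Each array was above 0. Its mean was 0.60 ± 0.33 (SD, n = 4), which was not called (limma adjusted p = 0.0839). Arrays 1 and 4, which were turned, read higher than arrays 2 and 3. With a term for the observed channel order in the fit, the adjusted p of this probe was 0.0485 (limma). In the other fits with arrays 1 and 4 turned it was 0.0523 to 0.204 (limma). AT1G21550 also has a probe of its own, which read 1.92, 1.31, 0.90 and 1.40 on arrays 1 to 4. All of these were above 0, and the mean was 1.38 ± 0.42 (SD, n = 4; limma adjusted p = 0.0179), called higher. Its call was lost without array 2 or 4 (limma adjusted p = 0.0797 and 0.0856). In those fits 21 and 33 of all 5386 genes were called higher, against 148 with 4 arrays. The called-lower probe of CML42, CML43 and AT1G21550 thus stood alone below 0 among the 3 probes that list any of these genes, and the differences between the probes were not tested.

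CML37 and CML38 are calcium sensors known from wounding and low oxygen, respectively. The probe for CML38 and AT1G76640 read -1.67, -1.58, -1.26 and 0.08 on arrays 1 to 4, so 3 arrays were low and array 4 was near 0. Its mean was -1.11 ± 0.81 (SD, n = 4) with an adjusted p of 0.107 over all 4 arrays and 0.0206 without array 4 (limma). The probe for CML37 and AT3G01830 read -0.74, 3.16, 0.34 and 1.09, with array 2 far above the others. Its mean of 0.96 ± 1.65 (SD, n = 4) was not called (limma adjusted p = 0.368), and it was 0.23 without array 2 and 1.53 without array 1. AT3G01830 also has a probe of its own, with a mean of 0.52 ± 0.43 (SD, n = 4), which was not called (limma adjusted p = 0.149).

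CML41 appears on a shared probe as well, together with CML37, CML38, AT1G76640 and AT3G01830. That probe read 1.16, 0.36, -0.51 and 0.58 on arrays 1 to 4, with array 3 lowest. The order of its arrays was unlike that of the CML41 probe, for which arrays 3 and 4 were highest. Its mean was 0.40 ± 0.69 (SD, n = 4; limma adjusted p = 0.39), and the mean was 0.15 without array 1 and 0.70 without array 3. The probe with RIC7 and a further 3 genes had a mean of -0.03 ± 0.21 (SD, n = 4; limma adjusted p = 0.892). AT5G52580, which that probe lists, had a mean of -0.22 ± 0.23 (SD, n = 4) on a probe of its own and was not called (limma adjusted p = 0.291).

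**Figure D4:**
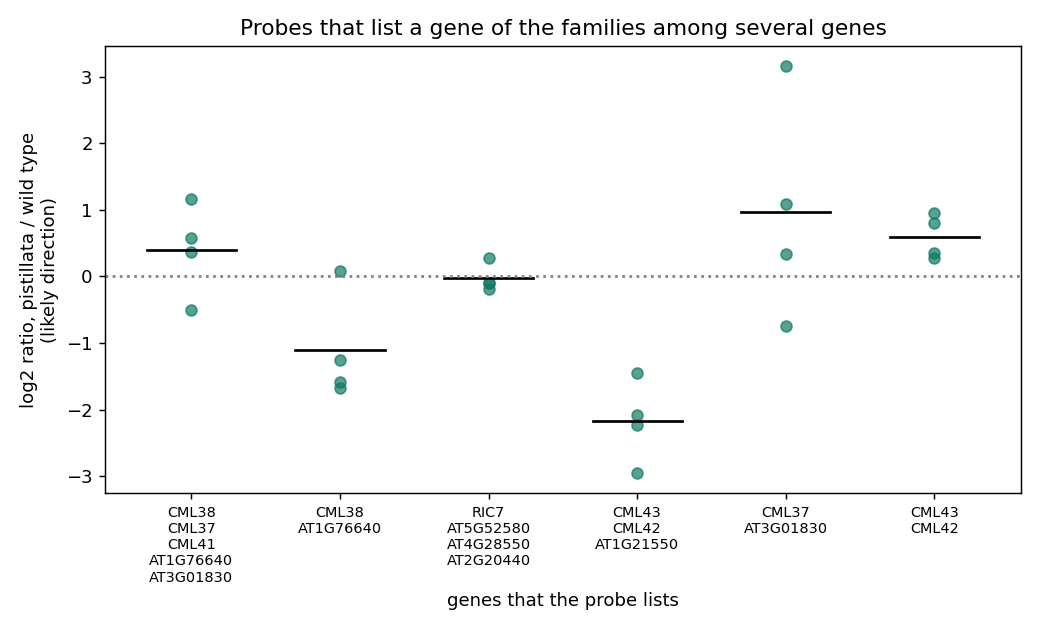
Log2 pistillata to wild-type ratio (vertical axis, likely direction) on the 4 arrays (points) and their mean (black line). The horizontal axis holds the 6 probes that list a gene with a symbol of these families among several genes. The probe of CML42, CML43 and AT1G21550 lies below 0 on each array and that of CML42 and CML43 alone lies above 0 on each.

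Genes that act beside these families but carry other names give the setting. Of 21 such genes with a probe of their own, limma called 2 lower and 1 higher, while 10 reached an unadjusted p under 0.05. Over all genes 5.79% were lower, 2.75% higher and 30.8% under that unadjusted p, the shares against which the counts of its groups are read. Their median log2 ratio was 0.17, against 0.16 for all genes. No symbol from the list of MAP kinase partners (the kinases above the cascade and the phosphatases that switch it off) was among them. Partners of ATMPK13 that carry only a locus name were not looked for.

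Calcium channels and calmodulin-binding IQ-domain proteins numbered 9, with 1 called lower, 0 called higher and a median of 0.41. The called one was IQD19, of a family of calmodulin-binding scaffold proteins on microtubules, which read -0.77, -1.58, -1.02 and -1.19 on arrays 1 to 4. All its arrays were below 0, and its mean was -1.14 ± 0.34 (SD, n = 4; limma adjusted p = 0.02). It was not called without array 2, 3 or 4 (limma adjusted p = 0.0647, 0.0826 and 0.091). Over all genes 312 were called lower with 4 arrays, and 159, 178 and 190 in those fits. The highest of the group was GLR2.7, a glutamate receptor-like channel, at 1.23 ± 0.85 (SD, n = 4; limma adjusted p = 0.099).

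Receptor kinases and peptide ligands outside the named series numbered 11, with 1 lower, 1 higher and a median of 0.17. RALFL25, of the RALF family of secreted peptides whose members bind FERONIA-type receptor kinases, read -3.96, -3.92, -3.90 and -4.08 on arrays 1 to 4. Its arrays were nearly equal, and its mean of -3.97 ± 0.08 (SD, n = 4) put it 15.6-fold lower in pistillata (limma adjusted p = 0.000585). CLE27, a peptide of the CLAVATA3-related family, read 0.96, 0.71, 0.90 and 0.96, all well above 0, and its mean of 0.88 ± 0.12 (SD, n = 4) put it 1.84-fold higher (limma adjusted p = 0.0109). CLE27 was not called without array 2, 3 or 4 (limma adjusted p = 0.053, 0.0684 and 0.0538). Over all genes 148 were called higher with 4 arrays, and 21, 19 and 33 in those fits. SCN1, a regulator of ROP GTPases that restricts where root hairs form, was the 1 gene of the ROP switch measured and stood at -0.51 ± 0.23 (SD, n = 4; limma adjusted p = 0.0766). After centring each array on its probe median the adjusted p of SCN1 was 0.0492 (limma). In that fit 353 of all genes were called lower, against 312 in the main fit. In the other fits with arrays 1 and 4 turned, its adjusted p was 0.0508 to 0.206 (limma).

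The 3 tapetum markers named above were lower by more than any of these apart from RALFL25. Their part in the lower values of RALFL25, IQD19 and the shared CML probe was not tested.

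**Figure D5:**
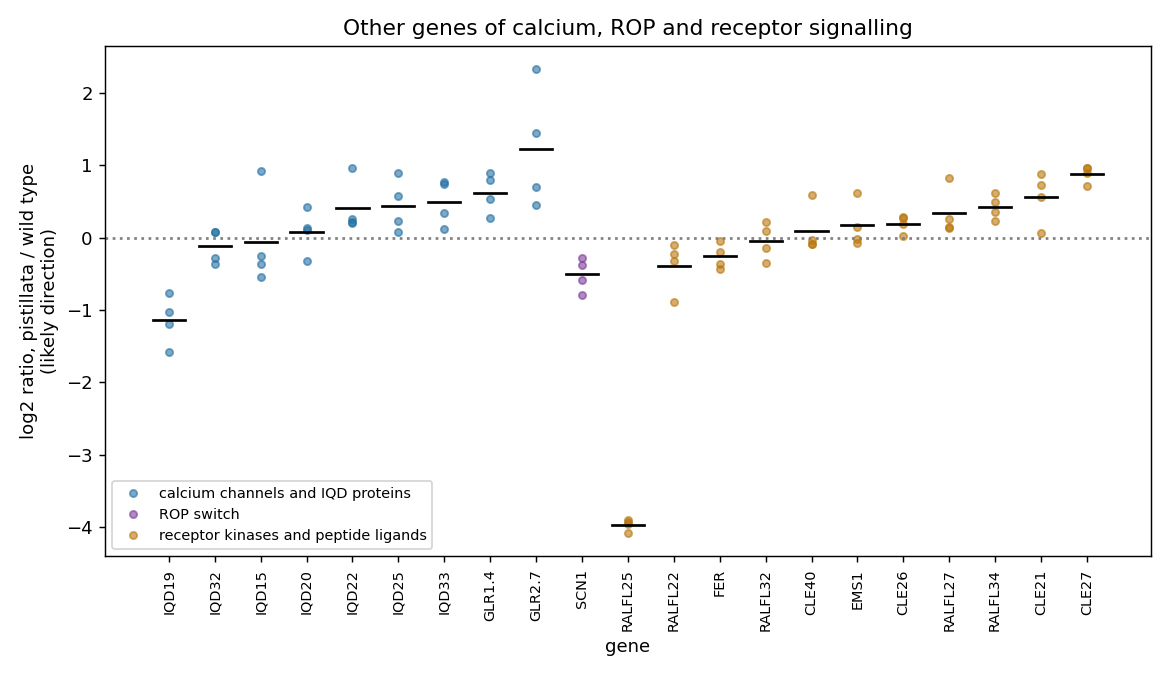
Log2 pistillata to wild-type ratio (vertical axis, likely direction) on the 4 arrays (points) and their mean (black lines) for 21 genes of calcium, ROP and receptor signalling outside the named series (horizontal axis, ordered by mean within each group). RALFL25 lies near -4 on each array, and IQD19 and CLE27 are the other called genes.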

How the data were processed

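RNA of pistillata and wild-type inflorescences was compared on 4 arrays with 2 channels each, and no depths or signal strengths belong to these values. The authors deposited log2 ratios of the channels. Per the labels, normalization followed a published procedure. Its dyes, numerator, background correction and centring were not given in the sources used here. Log base 2 was read from the limits of the values, 6.64 on either side of 0, the log2 of 100.

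Of 26933 rows, 424 empty and 35 control spots were left out. Probes were named through the platform annotation where they list 1 gene, with symbols from the reference gene table (TAIR10.1), and probes of a gene were averaged; the 3 genes have 1 probe each. Sequences were not used here. The fit was limma 3.58.1 in R 4.3.3 (lmFit with an intercept, eBayes, two-sided, Benjamini-Hochberg over all genes), also tested on simulated data. Genes were named if called, or if lowest or highest in their family or list. Beyond this rule all 6 shared probes are described, and AT1G21550, AT3G01830 and AT5G52580, chosen after their values were seen. The members, lists and the turning of arrays 1 and 4 were chosen with earlier results of these data known. Alternatives were centring, at least 3 arrays, a channel term, averaged pairs, trended and robust moderation, array weights, probes with a value at those limits (capped) left out, single probes, a threshold of 0.01, the labels' channel order and each array left out.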

Additional observations from a re-analysis of the deposited data

Results flagged for a closer look

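A single array stood apart from the other 3 in 2 of 29 sets of 4 values checked, and chance gives about 1 in 20. IQD22, an IQ-domain protein gene, read 0.96 on array 3 against 0.20 to 0.26 on the others, and the gap to its nearest value was 0.92 of the range of the 4. CLE40, a CLAVATA3-related peptide gene, read 0.58 on array 2 against -0.09 to -0.03 on the others, and that gap was 0.908 of the range. Neither gene was called (limma adjusted p = 0.184 and 0.697). No array of ATMPK13, CML30 or CML41 stood apart by this measure. The nearest was array 3 of CML30, with a gap of 0.776 of the range, which is below the limit for 4 values.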

How the results depend on the processing

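Of ATMPK13, CML30 and CML41, 0 were called lower in any setting, and 1 was called higher, ATMPK13 at 0.60, only without capped probes. Centring turned CML30 to -0.0153, and leaving out array 3 turned it to -0.0553. The labels' channel order, with channel 1 taken as the numerator, put ATMPK13 at -0.00912, CML30 at 0.18 and CML41 at 0.46. With channel 2 as the numerator these signs change. The causes were not tested. Leaving out each array gave 0.51 to 0.69 for ATMPK13, -0.0553 to 0.18 for CML30 and 0.13 to 0.48 for CML41, with 0 called.

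The same alternatives were applied to pathway genes and shared probes after the data were examined. Of the pathway genes, 2 lower and 1 higher became 1 and 0 with averaged pairs. They became 2 and 0 with trended and robust moderation, and 0 and 0 by the labels' order. With array weights 3 were higher, and without capped probes 3. Over all genes 148 were called higher in the main fit, 21 with averaged pairs and 0 with trended and robust moderation. By the labels' order 0 were called. Without capped probes 311 of 5154 were called higher, and with array weights the number was also above 148. The count of higher pathway genes thus moved in the same direction as that over all genes in these fits. Leaving out arrays gave 1 to 2 lower and 0 to 1 higher among the pathway genes, and 159 to 192 lower and 19 to 43 higher over all genes. By the labels' order, with channel 1 taken as the numerator, IQD19 turned to 0.0353. The shared probes that turned were at -0.36 (CML37, CML38 and CML41), 0.52 (CML38), 0.0688 (RIC7) and -0.25 (CML37). With channel 2 as the numerator these values change sign and would not count as turned. With an array left out the RIC7 probe lay between -0.13 and 0.0267, and turned without array 3.

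The precision is limited by 4 arrays, without signal over background. No paired analysis was possible because the arrays form 1 group of direct ratios.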
